A study of Mus musculus with 18 samples.

Results

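Annotated mRNAs of mouse myotubes with a long leader (5′ untranslated region, 5′ UTR) that holds no start codon upstream of the main one are described here. Members were all rows of a deposited table classed as annotated transcripts of the nuclear genome whose leader sequence had at least 150 nt and no AUG in any frame. The polysome table held 412 such isoforms among 7123, and the decay table had 392 among 6636, with 166 in both. They made up 29.1% of the 1414 annotated nuclear leaders of that length in the polysome table and 33.9% of the 1158 in the decay table. Several members can come from 1 gene: the 412 polysome members lay in 317 loci and had 388 distinct leaders, and the 392 decay members lay in 320 loci and had 366. The comparison leaders were the other 1002 (polysome) and 766 (decay) annotated nuclear leaders of at least 150 nt, each with 1 or more upstream AUGs. The rule used the annotation class, length and AUG content and no measured value. Annotated here does not mean an exact start. The deposited distance of members' 5′ ends from the annotation ran from -97 to 100 nt in each table. It was within 10 nt for 148 of 412 polysome members and 146 of 392 decay members.

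Both ends of single mRNA molecules were sequenced (TIF-seq2) in primary wild-type (WT) myoblasts from the gastrocnemius of female mice that had fused into myotubes within 24 h of 1 µM of the ERK inhibitor SCH772984. The polysome assay had ribosome-free, light and heavy fractions, taken after cycloheximide (CHX), from 2 mice that are the same by label in each fraction. The decay assay had 3 mice, the same by label, at each of 0, 3, 6 and 12 h of 7.5 µg/ml actinomycin D (ActD). ActD blocks transcription. All groups share genotype and ERK inhibitor. Each table gives 1 pooled coverage count per isoform and 1 value made by the authors over all libraries of its assay, named TE (translation efficiency) or half-life. Coverage summed to 1601919 in the polysome table and 3121491 in the decay table, and members held 6.51% and 5.86% of it. Since no value per mouse is given, differences have no error over mice, and medians, quartiles and counts over isoforms are given with no test. Values were used at a coverage of at least 30, which left 230 polysome and 317 decay members. Of 12 genes typical of myotubes, 9 were named in each table, with summed coverage of 259 to 66829 (polysome) and 2427 to 57799 (decay). Of 5 genes typical of satellite cells, fibroblasts, leukocytes and endothelium, 0 were named, though names could be given to only some isoforms.

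In the scanning model, the small ribosomal subunit binds at the cap, moves along the leader and starts at the first AUG it recognises. An upstream AUG can capture it before the main reading frame, and stable base pairing in a GC-rich leader can slow it. A purine at the third base before the start codon (position -3) favours recognition of that codon. Some classic leader elements act without an upstream AUG: the terminal oligopyrimidine (TOP) tract at the cap of ribosomal protein mRNAs, read by the mTOR pathway, and the iron responsive element (IRE) of ferritin mRNAs, a hairpin with a CAGUG loop bound by iron regulatory proteins.

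Stretches of member leaders are shown first, since they hold the elements named above. Positions are counted from the 5′ end of the leader, coordinates span the isoform on GRCm39 as deposited, and gene symbols were matched through RefSeq windows. Fth1 (chr19:9960068-9962456, plus strand) and Ftl1 (chr7:45107369-45109263, minus strand) encode the heavy and light chains of ferritin, the iron store, and the letters CAGTG of the known IRE loop are in capitals in the stretches at leader positions 29 to 58 and 33 to 62.
Fth1: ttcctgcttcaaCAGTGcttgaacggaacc
Ftl1: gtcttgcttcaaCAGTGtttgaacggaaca

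CAGTG alone was common, with 26.5% of polysome members and 30.6% of comparison leaders up to the members' longest, and it marks no IRE by itself. The first 24 nt of the leaders of Rplp2 (chr7:141027564-141031262, plus), Rpl38 (chr11:114559406-114563157, plus) and Rpl28 (chr7:4795964-4797557, plus), which encode proteins of the large ribosomal subunit, are given with their TOP tracts in capitals. A TOP start was taken as C followed by 4 or more pyrimidines.
Rplp2: CTTTCgccgccggacgccgccgag
Rpl38: CTTTCCCCgttctcttcggttctc
Rpl28: CTCTTTCCgtctccggccgccata

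The last 24 nt before the start codon show the context of the main AUG, with the base at -3 in capitals. They are given for 4 of the members with the most coverage in either table, and Phlda3 is the one without a purine.
Fth1: accgcgcctcgccccgccgccAcc
Rplp2: gtctgtcccccgcagccgagtGac
Eno3: actcacatctcctgtggtgcaGcc
Phlda3: agctgtgggaacctcggggtgCcc

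The range of composition is shown by the 30 nt richest in G and C of the member highest in GC content, Cdc34 (chr10:79518076-79524230, plus; a ubiquitin-conjugating enzyme), and of the lowest among those past the coverage minimum of the polysome table, Dhrs3 (chr4:144619707-144654211, plus; a retinaldehyde reductase), with CpG dinucleotides in capitals.
Cdc34: CGCGcCGgtccCGCGgccCGgccCGgcccc
Dhrs3: cttcccaccccttggactctccacagcccc

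Leaders without an upstream AUG were richer in G and C than leaders of like length with one. Over all members, the median GC content was 65.6% (quartiles 60 to 70.4%) in the 412 polysome members and 61.4% (57.0 to 66.3%) in the 873 comparison leaders up to the members' longest. In the decay table the median was 64.9% (59.0 to 70.6%) in 392 members and 60.3% (55.9 to 65.1%) in 752 comparison leaders. With length held to the same classes the difference was 3.95 percentage points in the polysome table and 4.00 in the decay table. Among isoforms past the coverage minimum it was 3.40 and 4.00 points, and in each of 5 length classes of both tables the members' median was the higher one. GC content of members spanned 41.0 to 83.7% in the polysome table, so the groups overlapped broadly.

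The excess lay in C more than in G. In the polysome table the median share of C was 32.3% in members and 29.7% in comparison leaders, and that of G was 32.6% in members and 31.6% in comparison leaders. A made up 16.7% in members and 19.1% in comparison leaders, and T 17.4% and 18.99% in the same order. Since a leader without AUG has to lack 1 word made of A, T and G, part of this difference in base content can follow from the rule, and how much was not tested. CpG dinucleotides numbered 8.05 per 100 nt in members and 6.00 in comparison leaders of the polysome table, and 8.24 and 5.80 in those of the decay table.

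Read the other way, the share of long leaders that lacked an AUG was larger among GC-rich and among shorter leaders. It was 43.8% (110 of 251) at a GC content of 70% or more and 18.8% (39 of 208) below 55% in the polysome table, with 56.5% (104 of 184) and 25.6% (51 of 199) in the decay table. By length it was 46.9% (184 of 392) at 150 to 199 nt and 4.76% (13 of 273) at 400 nt and more in the polysome table, and 53.0% and 7.69% in the decay table. Members were therefore mostly short within their class, with a median of 206 nt (quartiles 172 to 259) in the polysome table and 204 nt (172 to 254) in the decay table.

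**Figure D1:**
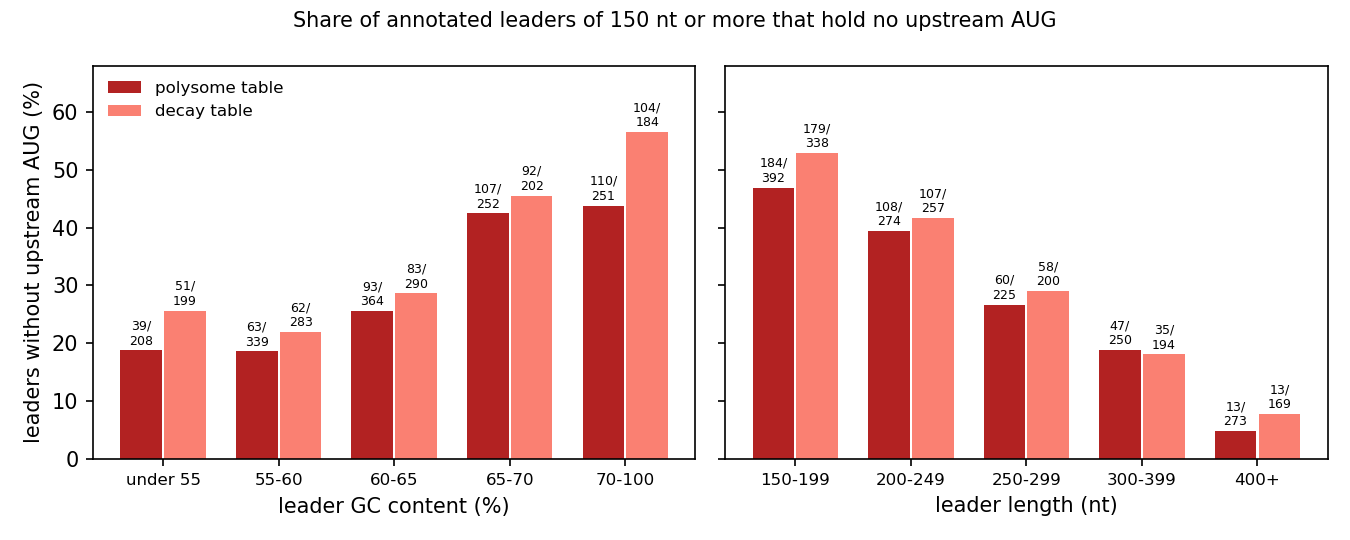
Share of annotated leaders of at least 150 nt without an upstream AUG (y axis, percent) by leader GC content (left) and leader length in nt (right), for the polysome table (dark bars) and the decay table (light bars), with members over all leaders of the class above each bar. The share is 43.8% and 56.5% in the class of highest GC content and 4.76% and 7.69% in the longest class.

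Absence of AUG was set beside that of the other arrangements of its 3 letters, which have the same base content. Of the 1414 long leaders of the polysome table, 29.1% lacked ATG, 28.6% lacked GTA, 17.2% GAT, 17.0% TAG, 8.13% AGT and 7.001% TGA. Of the 1158 in the decay table, a share of 33.9% lacked ATG, against 27.9% for GTA, 19.2% for GAT, 17.1% for TAG, 7.94% for TGA and 6.74% for AGT. ATG was thus the word most often missing in both tables, by a wide margin over 4 of the 5 others and by under 1 point over GTA in the polysome table.

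The main start codon of members more often had a purine at -3. It did so in 87.4% of polysome members (360 of 412) and 81.1% of comparison leaders (708 of 873), and in 90.6% of decay members (355 of 392) and 81.8% of comparison leaders (615 of 752). The 6 nt GCCACC or GCCGCC, the core of the Kozak context, ended 4.61% of polysome members and 1.49% of comparison leaders, and 5.61% and 1.46% in the decay table. A TOP start was found in 5.58% of polysome members and 3.32% of comparison leaders, but at 5.61% and 5.32% the decay table showed little difference. CUG, the near-cognate start codon used most often in mammals, was less dense in members, at 2.63 per 100 nt in polysome members and 2.996 in comparison leaders, and 2.60 and 2.93 in the decay table.

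Predicted folding of whole leaders was close in both groups. The minimum free energy of the whole leader was -38.5 kcal/mol per 100 nt in polysome members and -38.3 in comparison leaders, and -37.96 and -37.3 in the decay table, with same-length differences of -0.39 and -1.98. The last 75 nt before the start codon had a median of -22.6 kcal/mol in polysome members and -21.1 in comparison leaders, and -21.7 and -20.2 in the decay table. For the first 75 nt the values were -24.8 kcal/mol in members and -24.7 in comparison leaders of the polysome table. Within members, folding energy per nt and GC content had a Spearman correlation of -0.71 across the 230 isoforms used, which share genes and are no replicates.

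TE was higher in AUG-free leaders by a small amount that depended on coverage. The median TE was 0.000726 (quartiles 0.000497 to 0.00104) in 230 members and 0.000630 (0.000430 to 0.000907) in the 514 comparison leaders within the members' length range. With length held to the same classes the difference was 0.14 on the log2 scale, a ratio of 1.10, and 134 of 230 members (58.3%) lay above the comparison median of their own length class. At a coverage of at least 60 the same-length difference was -0.04 (154 members and 342 comparison leaders), and 76 of 154 members (49.4%) lay above that median. TE spanned 4.73-fold from the 5th to the 95th percentile of members and 5.31-fold in comparison leaders, so the groups overlapped almost wholly.

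The difference was larger in isoforms of low coverage. With a linear adjustment for log2 leader length it was 0.42 at a coverage of 11 to 29, 0.48 at 30 to 59, 0.17 at 60 to 149, -0.16 at 150 to 299 and 0.11 at 300 and more. Adjusted for GC content as well, it was above 0 in all 5 classes, at 0.53, 0.53, 0.34, 0.09 and 0.14. In the class of 30 to 59 the median TE was 0.000737 in 76 members and 0.000567 in 172 comparison leaders, and at 300 and more it was 0.000749 in 46 members and 0.000731 in 115 comparison leaders. The Spearman correlation between TE and coverage was 0.02 in the 230 members and 0.20 in the 514 comparison leaders. How the authors' TE behaves at low counts was not tested; its formula is not stated in the sources used here.

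**Figure D2:**
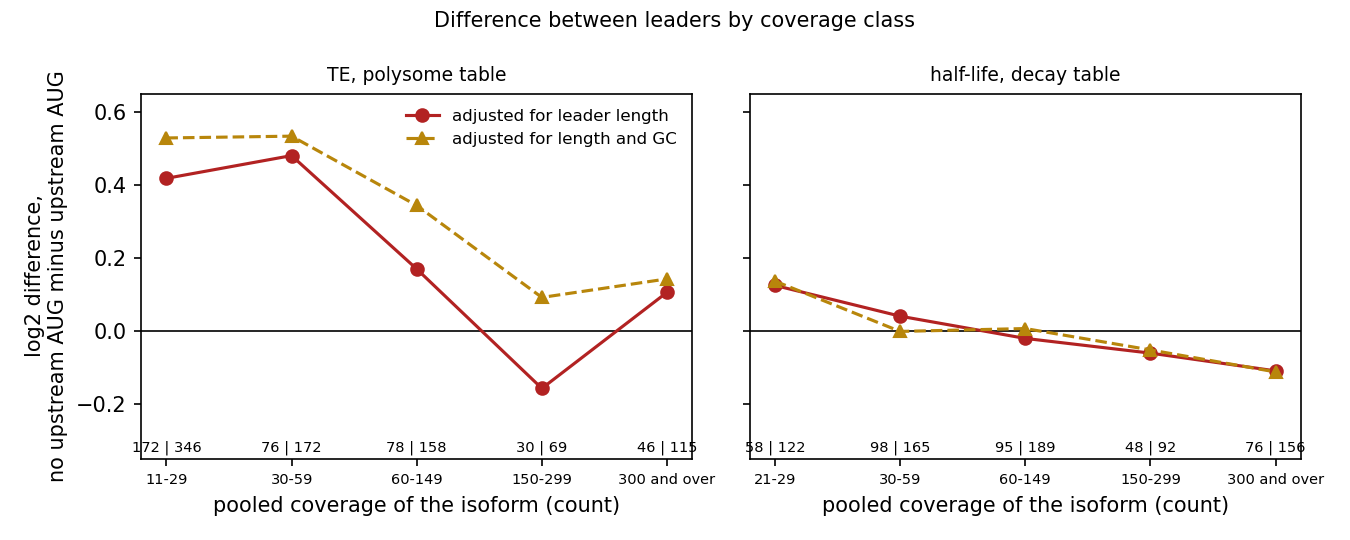
Difference in log2 TE (left) and log2 half-life (right) between leaders without and with an upstream AUG (y axis) by pooled coverage of the isoform (x axis), adjusted for leader length (circles) or for length and GC content (triangles), with the number of members and of comparison leaders above the axis. The length-adjusted TE difference is 0.48 at a coverage of 30 to 59, -0.16 at 150 to 299 and 0.11 at 300 and more, and with GC content it is above 0 in all 5 classes.

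By length, the median TE of members varied little. It was 0.000745 in 100 members of 150 to 199 nt and 0.000677 in 124 comparison leaders, 0.000709 and 0.000675 at 200 to 249 nt, and 0.000664 and 0.000663 at 250 to 299 nt. At 300 to 399 nt it was 0.000716 in 30 members and 0.000569 in 108 comparison leaders. The class of 400 to 531 nt held 8 members, with a median of 0.000785 against 0.000572 in 74 comparison leaders. The Spearman correlation between TE and leader length was -0.05 in members and -0.07 in comparison leaders. For orientation, the 1137 annotated leaders under 150 nt without an upstream AUG had a median TE of 0.000849 and the 239 with one had 0.000710.

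**Figure D3:**
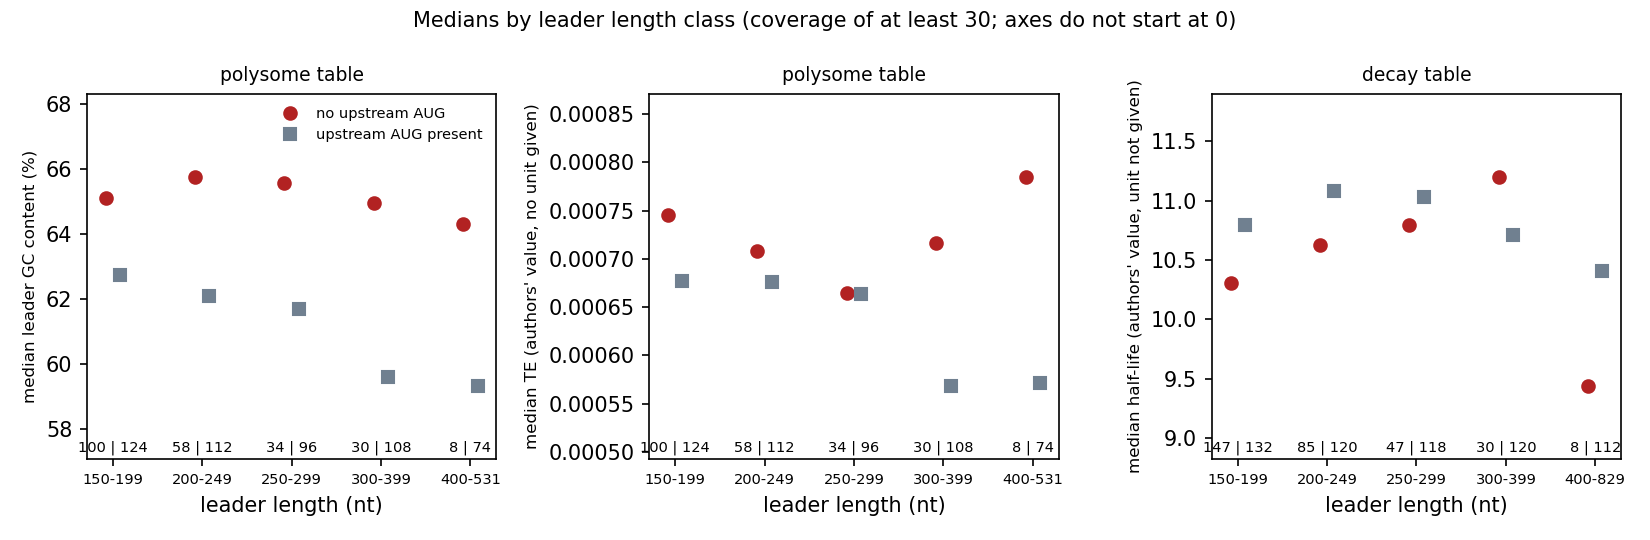
Median leader GC content (left, percent) and median TE (middle) in the polysome table, and median half-life (right) in the decay table, by leader length class in nt, for leaders without (circles) and with an upstream AUG (squares), with their numbers above the axis. GC content is higher in leaders without an upstream AUG in all 5 classes, TE is nearly equal at 250 to 299 nt, and half-life is lower in 4 of 5 classes.

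Higher GC content went with lower TE, and at like GC content so did the presence of an upstream AUG. The Spearman correlation between GC content and TE was -0.30 in 230 members and -0.25 in 514 comparison leaders. Below 60% GC the median TE was 0.000864 in 56 members and 0.000682 in 222 comparison leaders, at 60 to 65% 0.000819 and 0.000700, at 65 to 70% 0.000724 and 0.000569, and at 70% and more 0.000616 in 60 members and 0.000428 in 71 comparison leaders. Members were thus higher in all 4 GC classes. These classes do not hold leader length, and members were shorter in each. Median lengths were 199.5 nt in members and 274 nt in comparison leaders below 60%, and 204 and 234 nt at 70% and more. The log2 difference adjusted for leader length and GC content was 0.32. At a coverage of at least 60 this adjusted difference was 0.22, and members stayed higher in all 4 classes, with 0.000830 and 0.000731 in the lowest, 0.000833 and 0.000700, 0.000625 and 0.000605, and 0.000627 and 0.000431 in the highest.

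**Figure D4:**
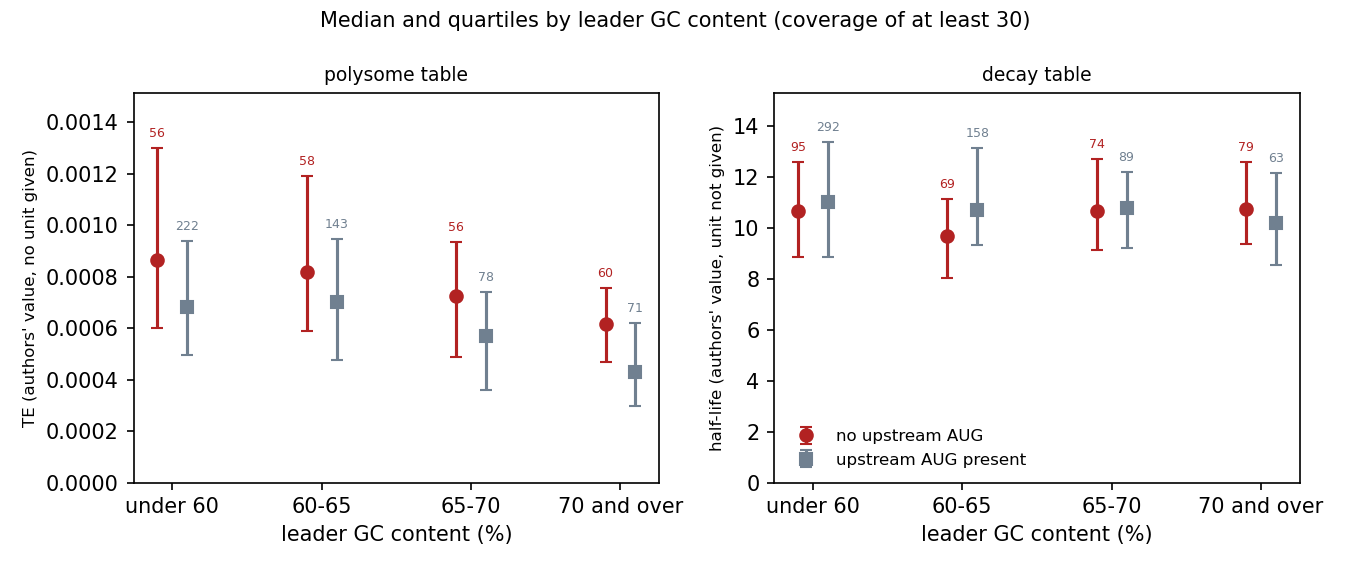
Median (symbols) and quartiles (bars) of TE (left) and half-life (right) by leader GC content in percent, for leaders without (circles) and with an upstream AUG (squares), with the number of isoforms above each bar. TE is higher in leaders without an upstream AUG in each class, from 0.000864 against 0.000682 below 60% GC to 0.000616 against 0.000428 at 70% and more, and quartiles overlap in all classes.

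By the number of upstream AUGs, the median TE of comparison leaders was 0.000670 in 206 isoforms with 1, 0.000640 in 210 with 2 or 3, and 0.000545 in 98 with 4 or more, but their median leader length also differed, at 222, 267 and 348 nt. Set against comparison leaders of the same length, the log2 difference of members was 0.11 for those with 1 and 0.00 for those with 2 or 3. It was 0.54 for those with 4 or more, so these values showed no steady order with the number. They are weighted by members per length class, with 100 of 230 members at 150 to 199 nt. The value for 4 or more AUGs therefore leans on lengths well below the median of such leaders. Whether all upstream frames closed within the leader made little difference: the median was 0.000625 in 313 isoforms where they did and 0.000648 in 201 where at least 1 ran on.

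The length of the 3′ UTR, which the rule did not use, went with TE in members at least as closely as GC content did, with a Spearman correlation of -0.35 across 230 isoforms. At 3′ UTRs of up to 150 nt the median TE was 0.000937 in 48 members and 0.000866 in 102 comparison leaders. Above 600 nt the medians were 0.000588 in 76 members and 0.000461 in 144 comparison leaders. The sources used here do not say whether TE was divided by transcript length. Members with a purine at -3 had a median TE of 0.000706 (203 isoforms), against 0.000941 in the 27 without.

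Of the 8 members with the most coverage, Rplp2 led with 12873 and had a TE of 0.00128, above 84.3% of annotated isoforms. The other ribosomal protein members, Rpl38 and Rpl28, had 0.00117 and 0.00113. These 3 leaders of 153 to 364 nt have 73.9, 69.8 and 64.8% GC, against a median of 65.2% in the members used. All 3 had a TE well above the members' median of 0.000726. Their 3′ UTRs are short, at 41, 41 and 51 nt. Members with 3′ UTRs of up to 150 nt had a median TE of 0.000937. The 16 members with a TOP start had a median of 0.000695, against 0.000727 in the 214 without. Phlda3, a p53-regulated repressor of Akt, had a coverage of 8622 and a TE of 0.000802 with a leader of 280 nt. Eno3, the muscle form of the glycolytic enzyme enolase, had 6998 and 0.000660, and Trim54, a muscle RING finger protein of the sarcomere and microtubules, had 5655 and 0.000830.

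4 of the 8 could not be named. The isoform at chr3:88390513-88410614 (minus) had a TE of 0.000553 and that at chr10:128383986-128384983 (minus) 0.000987. The isoform at chr2:155661758-155668625 (minus) reached 0.00181 with a leader of 272 nt, and a member on chromosome 18 had 0.000743. The ferritin members Ftl1 and Fth1, the first of them chosen after its values were seen, had a TE of 0.000606 and 0.000747. A less covered isoform of each, with another 5′ end and the same 3′ UTR length, was lower. It had 0.000259 for Ftl1 (coverage 81) and 0.000469 for Fth1 (coverage 30).

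Among the 101 members with a coverage of at least 100, Capg, an actin filament capping protein, had the highest TE at 0.00209. Atp5h, a subunit of mitochondrial ATP synthase, was also among the highest 5 with 0.00162. The lowest was an isoform at chr17:35220068-35235298 (plus) with 0.000232, followed by Bag6, a chaperone of membrane protein quality control, with 0.000259. Next came an isoform of Pkm, the glycolytic enzyme pyruvate kinase, with 0.000278 at a coverage of 203. Other Pkm members with the same 3′ UTR length, all below a coverage of 100, were higher. They had 0.000530, 0.000637 and 0.000539 at coverages of 97, 20 and 12. Atp2a1, the calcium pump SERCA1 of fast muscle, had 0.000295 and Nrap, a scaffold of developing myofibrils, 0.000316. Capg and Atp5h have leaders of 53.0 and 53.9% GC, but Nrap and Atp2a1, at 51.9 and 57.5%, have similar GC content at the opposite end of TE. The longest leaders were those of Ube2m (531 nt, an enzyme of neddylation), with a TE of 0.000752, and Sco2 (510 nt, a cytochrome c oxidase assembly factor), with 0.000944. Cdc34, at 83.7% GC, had 0.000471 and 0.000541 in a pair of isoforms that differ in their 3′ ends, and Dhrs3 and Myl12a, a regulatory light chain of myosin, at 45.7 and 47.7% GC, had 0.00145 and 0.00104.

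Half-lives of members and comparison leaders were close. The deposited unit is not stated. The median was 10.5 (quartiles 8.97 to 12.3) in 317 members and 10.8 (9.02 to 13.0) in 602 comparison leaders, a same-length difference of -0.05 on the log2 scale or a ratio of 0.967. In all, 133 of 317 members (42.0%) lay above the comparison median of their length class, and 94 of 219 (42.9%) did at a coverage of at least 60. By coverage the length-adjusted difference was 0.12 at 21 to 29, 0.04 at 30 to 59, -0.02 at 60 to 149, -0.06 at 150 to 299 and -0.11 at 300 and more. In that last class the median was 11.1 in 76 members and 12.0 in 156 comparison leaders.

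GC content had a Spearman correlation of 0.09 with half-life in members and -0.05 in comparison leaders, and the order of the groups varied with it. Below 60% GC the median was 10.7 in 95 members and 11.01 in 292 comparison leaders, and at 70% and more 10.8 in 79 members and 10.2 in 63 comparison leaders. The 3′ UTR went with half-life in both groups: at up to 150 nt the median was 11.4 in 58 members and 11.9 in 139 comparison leaders, and above 600 nt 9.72 in 102 members and 9.92 in 149 comparison leaders. AUUUA, the core of AU-rich decay elements, was found in the 3′ UTR of 39.5% of decay members (154 of 390) and 29.4% of comparison leaders (220 of 748), and members with it had a median half-life of 9.99 against 10.7 in those without. Members also had longer 3′ UTRs in that table, with a median of 374 nt against 332 nt in comparison leaders. The part of these features in the half-life difference was not tested beyond a linear adjustment, which gave -0.04 for leader length alone and -0.02 for leader and 3′ UTR length.

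The members with the most decay coverage lay near or above the median. Rplp2 had a half-life of 12.6, Trim54 12.1, Eno3 12.8, Fth1 13.0 and Myl12a 11.7, and the member on chromosome 18 stood apart with 26.1. The isoform at chr3:88390513-88410614 had 11.5. Among the 162 members with a coverage of at least 100, the highest half-life was 73.3 in an isoform at chr5:31063877-31065066 (minus), followed by R3hdml with 41.4 and Psenen, a subunit of gamma-secretase, with 34.1. The lowest was 4.12 in an isoform at chr7:46025898-46028520 (plus). Hspa5, the chaperone BiP of the endoplasmic reticulum, had 6.52. These values came from coverages of 157, 104, 217, 481 and 274, in the order given. If the unit is h, those of 73.3, 41.4 and 34.1 lie beyond the last time point of 12 h. Pabpc4, a cytoplasmic poly(A)-binding protein with the longest member leader (829 nt), had 9.14, and Myl1, a fast muscle myosin light chain with 40.3% GC, had 11.1.

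Isoforms of 1 locus allow the closest comparison, since both share the 3′ end, the 3′ UTR and, by the last 20 nt of the leader, the start codon. A member and an isoform with an upstream AUG stood together in 14 loci of the polysome table, the partner being annotated or having a new transcription start. The isoform without an upstream AUG had the higher TE in 12 of them, and the median log2 difference was 0.37 (quartiles 0.09 to 0.86). In the 10 loci where the partner had the longer leader it was 0.16, with the member higher in 8, and in the 4 where the partner had the shorter one it was 1.18, with the member higher in all 4. Where both isoforms had a coverage of at least 60 it was higher in 5 of 7 loci, with a median of 0.25. As a measure of scatter, pairs of isoforms with the same 3′ end, the same upstream AUG status and 5′ ends under 20 nt apart differed with an SD of 0.38 over 21 loci. Of the 14 pairs 7 differed by more than that, and the member was higher in all 7. These 7 were picked by the size of the same difference, so their direction is no separate support. Several had low coverage, with 50, 40, 36 and 30 for the members of Pacsin3, Aldoa, Spsb2 and a locus on chromosome 11.

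The upstream AUG of such partners is shown for 3 loci, in capitals with its surroundings, from leaders of 598 nt (Phlda3, positions 269 to 295), 266 nt (Eif5a, 165 to 191) and 891 nt (Atp2a1, 549 to 575). Where several were present, the last before the main start codon is given.
Phlda3 (chr1:135693589-135696871, plus): gagcggtggaacATGtaagggcacatc
Eif5a (chr11:69807548-69812061, minus): ctcagtcttcatATGaagtgagacgtc
Atp2a1 (chr7:126045032-126063428, minus): aatcccttgttgATGgctgcagcaacc

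For Phlda3 the member of 280 nt had a TE of 0.000802, against 0.000458 in the isoform starting 318 nt further upstream, whose leader holds 4 AUGs. Its partner had a coverage of 74. For Eif5a, a translation elongation factor, TE was 0.000830 without and 0.000700 with 3 upstream AUGs, at coverages of 1187 and 255. Atp2a1 ran the other way, with 0.000295 in the member and 0.000368 in the isoform with 2 upstream AUGs. Aldoa, the muscle aldolase, had 0.000871 and 0.000389, at coverages of only 40 and 46. In 4 of the 14 pairs the member leader was exactly the end of the longer one, as in Phlda3 and Atp2a1, and there the median was 0.12 with 3 of 4 higher. In these 4 the partner also had the rest of the extension, of 53 to 705 nt in all. In the other pairs the leaders also differed in sequence other than the extension. The AUG was therefore not the only difference in any pair.

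Half-lives in the same kind of pair showed no common direction. The member was higher in 5 of 13 loci, and the median log2 difference was -0.18. Near-identical isoforms differed with an SD of 0.89 over 24 loci, and only R3hdml differed by more, with 41.4 in the member and 17.3 in its partner. An R3hdml member starting 35 nt downstream of the first had 16.9. Eif5a had 12.8 without and 14.1 with upstream AUGs, and Ccnd3, the cell cycle regulator cyclin D3, had 11.3 and 14.998.

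**Figure D5:**
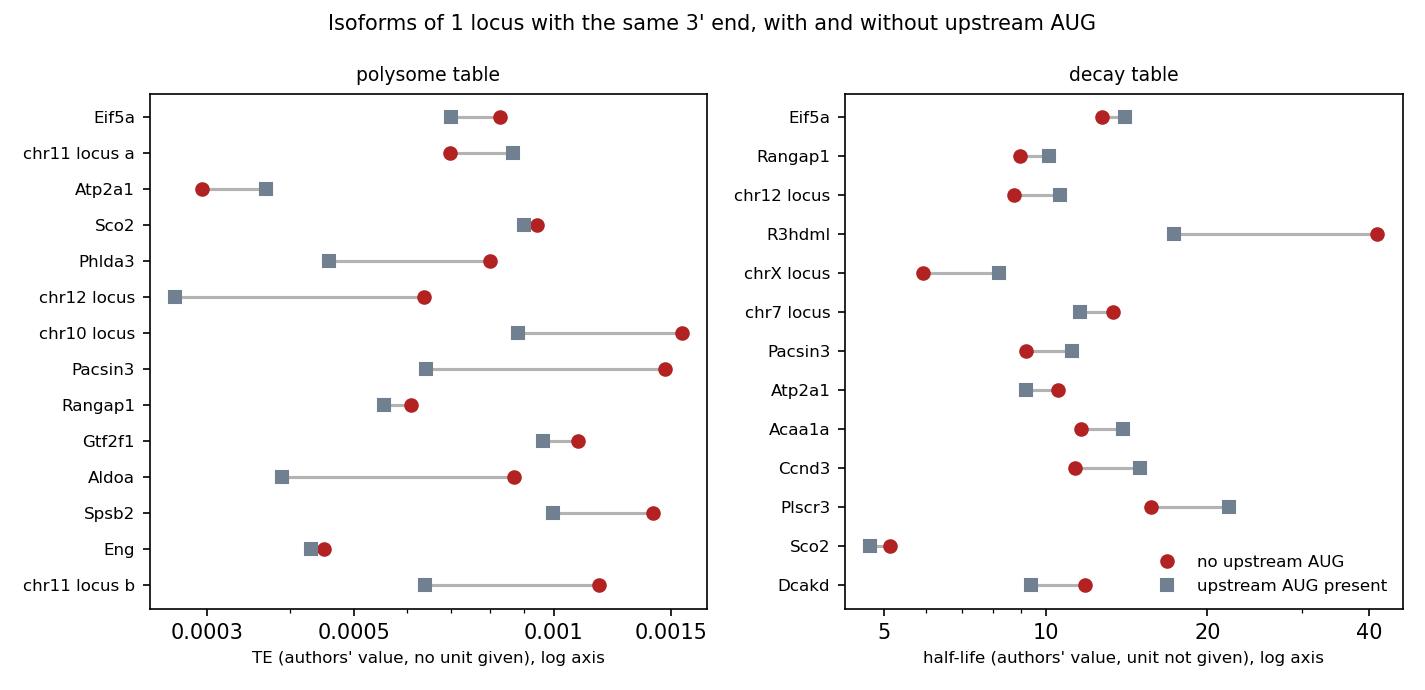
TE (left, log axis) and half-life (right, log axis) of isoforms of 1 locus with the same 3′ end, without (circles) and with an upstream AUG (squares), joined by a line and ordered by the lower coverage of the pair from top to bottom. Circles lie to the right of squares in 12 of 14 loci for TE and in 5 of 13 for half-life.

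The deposited TE and half-life of the same member showed little correlation. Near-identical isoforms differed with an SD of 0.38 (TE) and 0.89 (half-life) on the log2 scale, and such scatter limits what a correlation can show. The Spearman correlation was 0.08 across the 118 members used in both tables, 0.09 in 248 comparison leaders, and 0.26 in all 1126 annotated isoforms used in both. Coverage of the 118 members in both assays had a Spearman correlation of 0.74. Splitting the 118 at their medians put 31 above on both values and 31 below on both, with 28 in each of the mixed classes.

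The length limit of 150 nt marked no step in TE. Leaders without an upstream AUG had a median TE of 0.000834 within the first 10 nt above the limit (23 members) and 0.000802 within the 10 nt below it (38 isoforms). Half-life was 9.93 in 39 members just above it and 11.2 in 45 isoforms just below.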

How the data were processed

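Per the submitters' processing notes, the tools included STAR 2.5.3a, UMI-tools 0.5.4, cutadapt 1.16 and bcl2fastq 2.20.0, and the build was GRCm39. The authors deposited whole-number coverage counts per isoform, pooled over libraries. TE and half-life are scores deposited by the authors, whose formulas are not given in the labels. Columns for a single library number 0, so depth per library is unknown and nothing was tested. Members and lists were chosen with earlier results of these data known.

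Of the polysome members 1 had no value, 9 had one below 0, 172 had a positive one at a coverage under 30, and 230 were used. For decay members these numbers were 11, 4, 59 and 317, and 1 more lacked a 3′ UTR. Same-length differences are medians of log2 values (or GC percent) per length class (limits 150, 200, 250, 300 and 400 nt), averaged with the members per class as weights. Energies came from RNAfold 2.7.2, the other values from Python 3.11.15 with pandas 2.3.3. The calculation was tested on simulated data.

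The tables carry no gene names. A symbol was given where the first 20 nt of a leader lay in the RefSeq window (GRCm38.p6) of 250 nt before to 50 nt after a gene start on the same chromosome and strand, or through isoforms of the same locus or 3′ end: 267 of 412 and 242 of 392 members. Named members were the 8 with the most coverage, the 5 highest and 5 lowest values at a coverage of at least 100, the 3 longest and the 3 highest and lowest in GC content per table, and other members and pairs named were chosen after their values were seen. The base at -3, motifs and pairs were read from the deposited sequences on the sense strand. Splicing inside leaders comes from the deposited tables, since TIF-seq2 reads only the ends.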

Additional observations from a re-analysis of the deposited data

How the results depend on the processing

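No paired analysis was possible because the tables hold no column per library, and for the same reason no replicate could be left out in turn. The TE difference of 0.14 kept its sign under 13 of 15 alternatives (-0.04 to 0.32). It was -0.043 with a coverage minimum of 60 and -0.037 with one of 100, the second chosen after seeing the data, as were both linear adjustments at a coverage of 60, which gave 0.09 (length) and 0.22 (length and GC content). Without a coverage minimum it was 0.28. The half-life difference of -0.05 kept its sign under 14 of 15 (-0.08 to 0.01) and was 0.012 in isoforms present in both tables. The GC difference stayed above 0 under all 12 alternatives, from 2.97 to 4.41 points in the polysome table and 2.56 to 5.32 in the decay table. In the polysome table it was 4.03 with no coverage minimum, 4.41 with the most covered isoform of each locus and 4.18 from 200 nt up. In the decay table it was 2.56 in isoforms present in both tables and 5.32 from 200 nt up. The cause of these shifts was not tested. Low coverage limits single values: near-identical isoforms differed by a median of 0.20 (TE) and 0.59 (half-life) on the log2 scale.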

Other observations

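Some members share 1 leader and differ in their 3′ end. Member leaders with the same 5′ end and sequence and 3′ UTRs at least 100 nt apart were compared. TE was lower at the longer 3′ UTR in 5 of 7 leaders and half-life in 9 of 12. In some of these pairs, as for Ldb3, Sdc1 and Kdelr1, the shorter 3′ UTR is not the start of the longer one. There the isoforms differ in more than 3′ UTR length. Median log2 differences were -0.37 and -0.21, both smaller in size than the SD between near-identical isoforms (0.38 and 0.89). That SD is for the difference of a single pair and does not measure the scatter of a median over several. These leaders are not all separate loci. Cdc34 enters through both of its 5′ ends, and for half-life a locus on chromosome X enters with leaders of 157 and 218 nt. Cdc34 had the lower half-life at the longer 3′ UTR from both 5′ ends. With the leader of 172 nt it was 11.8 at a 3′ UTR of 337 nt and 28.2 at one of 36 nt. With the leader of 290 nt it was 11.2 and 21.5. Coverage was 402, 397, 40 and 34. In Arfgap1, a GTPase-activating protein of the Golgi, TE was 0.000447 at 1088 nt and 0.000726 at 330 nt, at coverages of 70 and 36. Sdc1, a cell surface proteoglycan, ran the other way, with a half-life of 21.9 at 1906 nt and 13.8 at 1154 nt, at coverages of 60 and 441.

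The frame of the main start codon was open through the whole leader, with no stop codon in that frame, in 23.5% of polysome members (97 of 412) and 12.3% of comparison leaders (107 of 873), and in 25% (98 of 392) and 9.97% (75 of 752) in the decay table. Members are shorter, and weighted to their length classes the share in comparison leaders was 15.02% (polysome) and 13.3% (decay). Members also hold less A and T, and the stop word TGA was absent from 16.5% of polysome members and 7.001% of all long leaders, members included. How much of the difference in open frames follows from base content or from the rule was not tested. An in-frame CUG stood after the last in-frame stop, or anywhere in an open frame, in 53.2% of polysome members and 52.1% of comparison leaders. The median TE was 0.000710 in the 124 members with such a CUG and 0.000743 in the 106 without. A motif of 4 runs of G, which can form a quadruplex, was found in 10.4% of polysome members and 7.56% of comparison leaders, and its 29 members had a median TE of 0.000638, against 0.000742 in the 201 without.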
